A study of Mus musculus with 8 samples.

Results

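The genes described here encode 10 plasma proteins of the acute phase response: the serum amyloid A genes Saa1, Saa2, Saa3 and Saa4, the orosomucoid genes Orm1, Orm2 and Orm3, the lipocalin gene Lcn2, haptoglobin (Hp) and hemopexin (Hpx). They were chosen by symbol from 24197 genes of the deposited table, of which 18004 had a read in at least 1 library. All 10 were listed, and each had reads in every library. The liver RNA came from 4 groups of mice aged 8 to 12 weeks, each with 2 libraries. Knockout males and knockout females carried floxed Stat5a and Stat5b alleles and an Alb-Cre transgene, which deletes both genes in albumin-expressing hepatocytes and leaves them in other liver cells. Control males and control females carried the floxed alleles, and the groups without and with Cre shared a mixed C57BL/6 x 129J strain label, while the Cre line was FVB/N. Ribosomal RNA was removed before stranded library preparation, and each library was made from pooled livers, with the animals per pool not given in the labels.

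Acute phase proteins are secreted by the liver in infection, injury and inflammation, when interleukin 6 acts through STAT3, and interleukin 1 through NF-kB and C/EBP factors, on their genes in hepatocytes. STAT5A and STAT5B are the transcription factors through which pituitary growth hormone acts on the same cells. In the mouse, Saa1, Saa2, Orm1, Orm2 and Hp are classical positive acute phase genes, Saa3 is known mainly from cells outside the hepatocyte lineage, and Saa4 is known as the constitutive member of its family.

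Every level below is in FPKM, reads scaled to gene length and library total, so that genes can be compared per length, and the deeper library of a group is given before the shallower one. The library totals behind FPKM ran from 6192515 to 34651386, with 2288033 to 11361272 reads in genes. Albumin led every group, with a mean of 10361.5 to 14568.3 FPKM, and 0 of 10 hepatocyte markers were called in either knockout comparison. Of all genes 1.39% were called higher and 0.793% lower in knockout males, and 1.04% and 0.508% in knockout females. Stat5b stood at 0.684 and 1.03 FPKM in knockout males, against 1.95 and 3.41 in control males. It stood at 1.77 and 1.11 FPKM in knockout females, against 3.88 and 2.9 in control females. Stat5a had 0.13 and 0.227 FPKM in knockout males, against 0.6 and 1.16 in control males. In knockout females Stat5a had 0.499 and 0.12 FPKM, against 0.92 and 0.804 in control females. Transcript of each gene thus remained in whole liver of both sexes. A gene is named as higher or lower in a comparison where its edgeR adjusted p-value in the authors' deposited table was under 0.05. That table gives group means, from which the reads of single libraries were recovered, and limma voom, a linear model of log2 reads with weights, was refitted on these as an alternative. The titles of both knockout female libraries carry 1 library code and those of both control female libraries another, whose meaning is not given, so that code and genotype cannot be told apart in females. In males, 1 knockout library shares the code of both control libraries and the other carries a code that neither control male library has.

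On mm9, the build of the files, the Saa genes lay on chromosome 7 within 42.3 kb in the order Saa3, Saa4, Saa1, Saa2, and 0 other listed genes lay between them. The Orm genes lay on chromosome 4 within 21.3 kb in the order Orm1, Orm3, Orm2, again with 0 other listed genes between them. Promoters of 8 of the 10 genes were matched in RefSeq on GRCm38.p6, a different build, and those of Orm1 and Hp were not. Shown are 250 bases upstream of the start site for the neighbouring pairs Saa1 and Saa2, and Orm2 and Orm3, and for Lcn2, which include the largest differences between knockout and control livers. Capitals mark the letters TTGCNNAA on either strand, a motif of C/EBP factors.
Saa1 (chr7:46742981-46743230, minus strand): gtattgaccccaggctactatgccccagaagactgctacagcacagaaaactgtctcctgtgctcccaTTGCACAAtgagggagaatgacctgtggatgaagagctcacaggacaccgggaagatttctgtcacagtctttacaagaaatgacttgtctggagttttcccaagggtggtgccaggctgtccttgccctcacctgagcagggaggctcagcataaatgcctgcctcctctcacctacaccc
Saa2 (chr7:46751583-46751832, plus strand): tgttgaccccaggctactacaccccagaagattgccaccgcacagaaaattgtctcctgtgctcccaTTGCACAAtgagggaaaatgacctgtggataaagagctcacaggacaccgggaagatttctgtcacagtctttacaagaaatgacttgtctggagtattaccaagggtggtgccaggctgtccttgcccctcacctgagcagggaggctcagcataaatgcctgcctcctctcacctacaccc
Orm2 (chr4:63362199-63362448, plus strand): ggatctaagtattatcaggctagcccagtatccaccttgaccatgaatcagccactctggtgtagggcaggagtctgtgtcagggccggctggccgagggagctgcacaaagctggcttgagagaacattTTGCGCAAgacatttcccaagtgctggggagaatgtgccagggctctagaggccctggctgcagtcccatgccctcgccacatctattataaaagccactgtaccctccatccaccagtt
Orm3 (chr4:63355908-63356157, plus strand): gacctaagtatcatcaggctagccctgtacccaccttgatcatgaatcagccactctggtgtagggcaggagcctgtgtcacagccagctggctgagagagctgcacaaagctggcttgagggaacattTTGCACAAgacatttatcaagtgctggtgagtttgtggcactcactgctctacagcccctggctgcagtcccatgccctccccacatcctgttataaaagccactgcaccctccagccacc
Lcn2 (chr2:32387740-32387989, minus strand): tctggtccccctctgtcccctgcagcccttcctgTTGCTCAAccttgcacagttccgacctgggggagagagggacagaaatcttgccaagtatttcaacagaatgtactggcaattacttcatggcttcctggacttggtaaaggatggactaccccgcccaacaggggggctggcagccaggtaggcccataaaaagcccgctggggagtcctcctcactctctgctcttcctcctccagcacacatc
The letters TTGCNNAA, searched on both strands, were found in the windows of 8 of 8 genes, against 9.56% of all 32851 promoters of the same length. In Saa1 and Saa2 the match was TTGCACAA and began 182 and 183 bases before the start site. In Orm2 it was TTGCGCAA at 120 bases and in Orm3 TTGCACAA at 121 bases, while in Lcn2 it was TTGCTCAA at 216 bases. Saa4 had 2 matches, at 245 and 52 bases, and Saa3 and Hpx had 1 each, at 99 and 200 bases. The STAT letters TTCNNNGAA were found in 0 of 8 windows, against 7.02% of all promoters. NF-kB letters, GGGA, any base and TTTCC, were found in 0 of 8, against 0.356% of all promoters. No match overlapped one of another motif, and a match or its lack in these windows is a description of letters, not of binding.

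Knockout livers had more transcript of most of these genes than their controls. In males 10 of 10 genes were higher in knockout livers by the authors' deposited table, against 1.39% of all genes called higher. In females 8 of 10 were higher in knockout livers by the authors' deposited table, against 1.04% of all genes called higher, and Saa3 and Orm1 were the exceptions. The median log2 ratio over the 10 genes was 3.78 in males and 1.85 in females, beside 0.01 and -0.01 over all genes with reads in both groups. The libraries did not overlap for 10 of 10 genes in males, where 20.1% of genes with reads were higher without overlap, and for 9 of 10 in females, where that share was 32.1%. In whole liver, more cells making a transcript and more transcript per cell cannot be told apart.

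**Figure D1:**
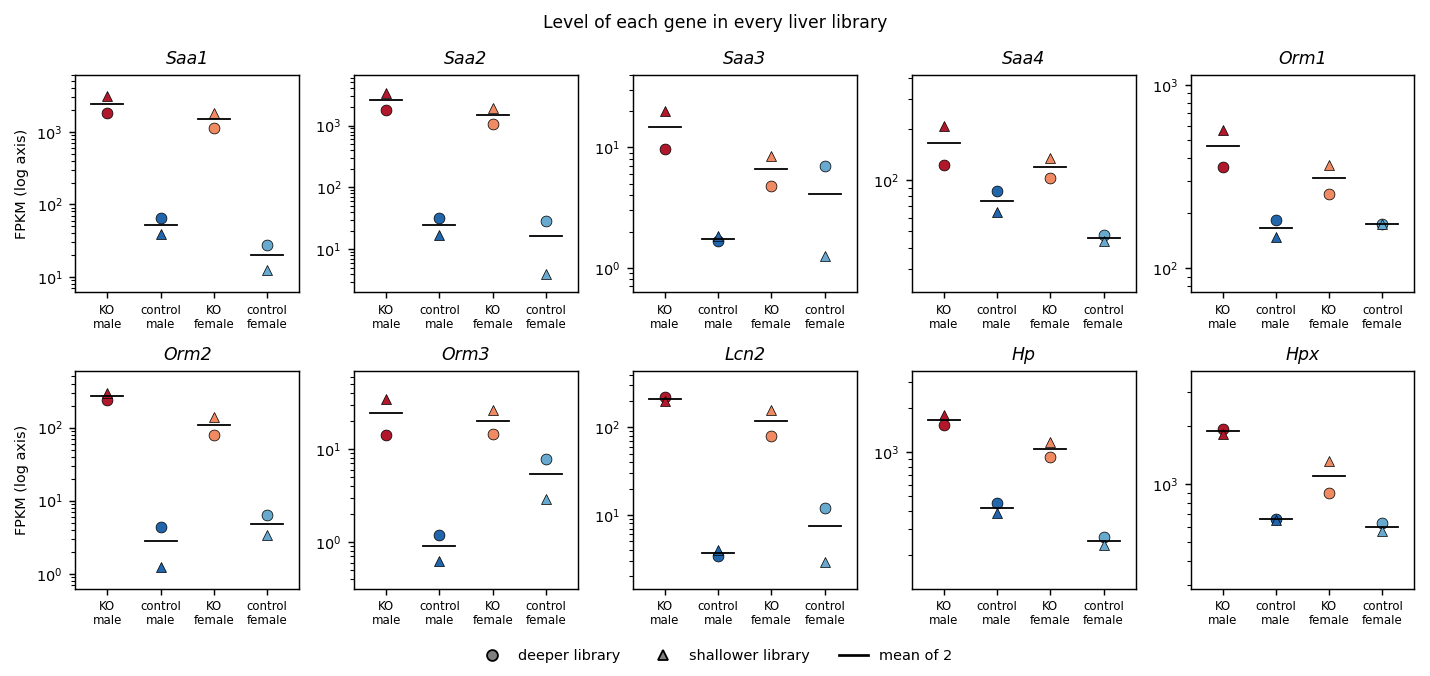
FPKM of the 10 genes (log axis) in the 2 libraries of each group, with the deeper library as a circle, the shallower as a triangle and their mean as a line; each panel has its own scale. Knockout libraries of both sexes lie above the controls of their sex for every gene but Saa3 in females, with 4.77 and 8.48 FPKM in knockout libraries, against 7.01 and 1.25 FPKM in control libraries.

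Saa1 (NM_009117, chromosome 7, 53995868 to 53998350) encodes a serum amyloid A carried on high density lipoprotein. It had 1810.7 and 3084.0 FPKM in knockout males, against 64.9 and 38.6 FPKM in control males. In females it had 1126.5 and 1838.7 FPKM in knockout livers, against 27.4 and 12.3 FPKM in control livers. Each knockout library was far above each control library of its sex, and the smallest ratio between a knockout and a control library was 27.9 in males and 41.1 in females. The authors' deposited table gives Saa1 as 46.0-fold higher in knockout males (edgeR adjusted p = 1.4e-44) and 67.7-fold higher in knockout females (edgeR adjusted p = 7.6e-53). In the limma voom refit the log2 fold changes were 5.48 ± 0.43 (SE, adjusted p = 0.0024) in males and 6.06 ± 0.43 (SE, adjusted p = 0.0032) in females.

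Saa2 (NM_011314, chromosome 7, 54007202 to 54009684) encodes the second acute phase serum amyloid A and had the highest mean level of the 10 genes in both knockout groups. It had 1769.7 and 3357.4 FPKM in knockout males, against 32.1 and 17.2 FPKM in control males. The females had 1082.5 and 1913.1 FPKM in knockout livers, against 28.4 and 4.03 FPKM in control livers. The groups were widely apart, although the control female libraries differed 7.05-fold from each other. By mean FPKM Saa2 was the gene of rank 2 of the whole table in knockout males and of rank 7 in knockout females, against ranks 915 and 1184 in control males and control females. The authors' deposited table lists it as 99.6-fold higher in knockout males (edgeR adjusted p = 8.8e-50) and 84.5-fold higher in knockout females (edgeR adjusted p = 2.6e-18). Both held in the limma voom refit, with log2 fold changes of 6.52 ± 0.71 (SE, adjusted p = 0.0055) in males and 6.58 ± 0.72 (SE, adjusted p = 0.0088) in females. The transcripts of Saa1 and Saa2 are 94.4% identical over their alignment, and 13.2% of the 50-base windows of Saa1 occur unaltered in Saa2. Reads could thus have been counted for the wrong copy. How many cannot be said, as read length is not stated.

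Saa3 (NM_011315, chromosome 7, 53967367 to 53971046) encodes a serum amyloid A known from macrophages and adipose tissue, and was among the least abundant of the 10. It had 9.63 and 20.2 FPKM in knockout males, against 1.68 and 1.82 FPKM in control males, where these rest on 26 and 6 reads. Knockout females had 4.77 and 8.48 FPKM, against 7.01 and 1.25 FPKM in control females. The males did not overlap, whereas in females the deeper control library lay between the knockout libraries. The authors' deposited table gives an 8.38-fold higher level in knockout males (edgeR adjusted p = 8.0e-11) and a ratio of 1.41 in females, where the edgeR adjusted p was 1. The limma voom adjusted p was 0.16 in males and 0.88 in females. The summed level of 15 macrophage and Kupffer cell markers was 128.2 and 121.2 FPKM in knockout males, against 60.5 and 63.1 FPKM in control males. Of these sums Mpeg1 alone held 40.0 and 36.0 FPKM in knockout males, against 6.03 and 6.44 FPKM in control males, and the other 14 markers summed to 88.2 and 85.3 FPKM in knockout males, against 54.4 and 56.6 FPKM in control males. The part of these markers in the Saa3 levels and in the other genes was not tested.

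Saa4 (NM_011316, chromosome 7, 53983368 to 53987913) encodes the constitutive serum amyloid A and differed least in its family between the male groups. It had 123.4 and 209.8 FPKM in knockout males, against 86.4 and 64.6 FPKM in control males. In knockout females it had 102.5 and 134.9 FPKM, against 47.3 and 43.5 FPKM in control females. The groups did not overlap in either sex. The authors' deposited table lists it as 2.18-fold higher in knockout males (edgeR adjusted p = 0.0057) and 2.38-fold higher in knockout females (edgeR adjusted p = 6.7e-08). The limma voom refit did not call it, with adjusted p-values of 0.075 in males and 0.11 in females.

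The make-up of the serum amyloid transcripts differed with the groups. The summed FPKM of the 4 Saa genes was 3713.5 and 6671.5 in knockout males, against 185.1 and 122.2 in control males. Saa4 made up 3.32% and 3.15% of that sum in knockout males, against 46.7% and 52.9% in control males. In females the sum was 2316.3 and 3895.2 FPKM in knockout livers, against 110.1 and 61.0 FPKM in control livers, and the Saa4 share was 4.43% and 3.46% in knockout livers, against 42.9% and 71.2% in control livers. Saa4 thus held the largest share of its family in every control library and a small one in every knockout library. Within the pair of Saa1 and Saa2, Saa2 took 49.4% and 52.1% in knockout males, against 33.0% and 30.8% in control males. It took 49.0% and 51.0% in knockout females, against 50.9% and 24.7% in control females, so the deeper control female library had the split of the knockouts. These shares were not tested.

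**Figure D2:**
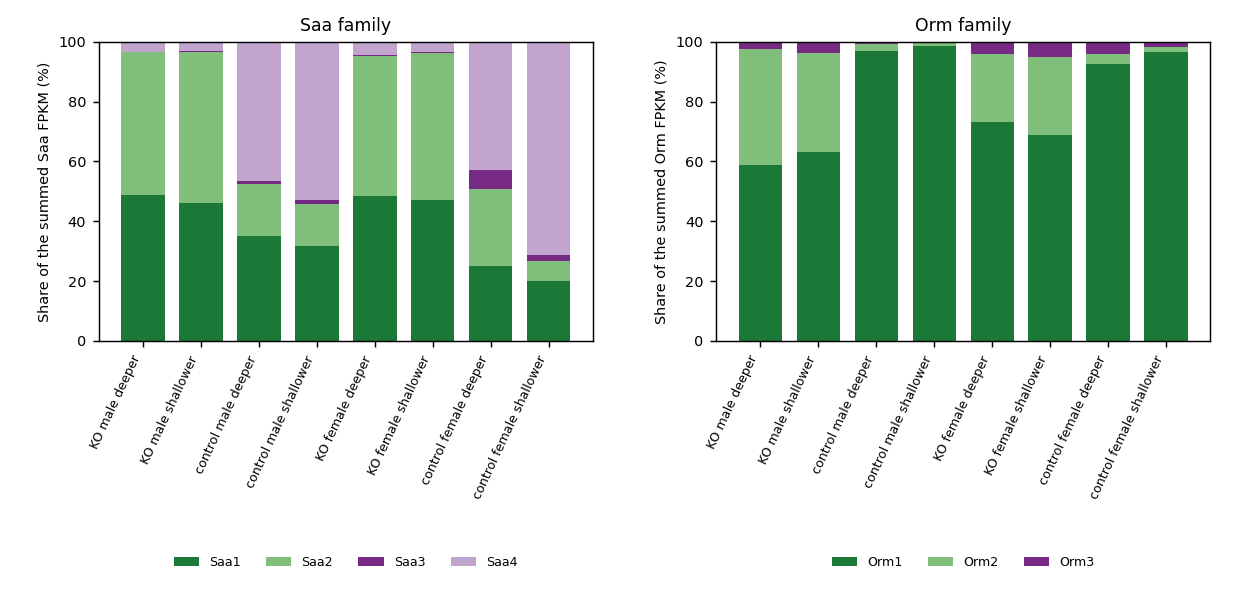
Share in percent of each gene in the summed FPKM of the Saa family (left) and the Orm family (right), 1 bar per library with knockout libraries left of the controls of their sex. Saa4 takes 42.9% to 71.2% in control libraries, with 3.15% to 4.43% in knockout libraries, and Orm1 takes 92.6% to 98.7% in control libraries, with 58.8% to 73.3% in knockout libraries.

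Orm1 (NM_008768, chromosome 4, 63005599 to 63009196) encodes orosomucoid, also named alpha-1-acid glycoprotein, a plasma carrier of basic and neutral lipophilic compounds. It had 359.2 and 569.6 FPKM in knockout males, against 183.9 and 148.2 FPKM in control males. The females had 255.9 and 367.3 FPKM in knockout livers, against 175.6 and 174.9 FPKM in control livers. Knockout libraries were above the controls in both sexes with no overlap. The authors' deposited table gives a 2.78-fold higher level in knockout males (edgeR adjusted p = 7.4e-06) and a ratio of 1.62 in females that missed the threshold (edgeR adjusted p = 0.052). The limma voom adjusted p was 0.023 in males and 0.41 in females.

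Orm2 (NM_011016, chromosome 4, 63023482 to 63026911), a second orosomucoid gene, differed far more than Orm1. It had 237.4 and 297.3 FPKM in knockout males, against 4.43 and 1.25 FPKM in control males, the second of these from 6 reads. Knockout females had 78.7 and 138.9 FPKM, against 6.38 and 3.35 FPKM in control females. All knockout libraries were well above all control libraries. The authors' deposited table lists it as 78.2-fold higher in knockout males (edgeR adjusted p = 2.2e-54) and 19.9-fold higher in knockout females (edgeR adjusted p = 2.4e-35). The limma voom log2 fold changes were 6.23 ± 0.56 (SE, adjusted p = 0.0031) in males and 4.21 ± 0.39 (SE, adjusted p = 0.0053) in females.

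Orm3 (NM_013623, chromosome 4, 63017195 to 63020545) lies between both and was the least abundant orosomucoid gene in each knockout group. It had 14.2 and 34.5 FPKM in knockout males, against 1.2 and 0.627 FPKM in control males, which rest on 27 and 3 reads. In knockout females it had 14.4 and 25.9 FPKM, against 7.73 and 2.92 FPKM in control females. The knockout libraries covered a similar range in both sexes, whereas the control females were above the control males. The authors' deposited table lists it as 22.4-fold higher in knockout males (edgeR adjusted p = 2.0e-21) and 3.36-fold higher in knockout females (edgeR adjusted p = 0.00013). The limma voom refit called neither, with adjusted p-values of 0.11 in males and 0.35 in females.

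Orm1 made up nearly all orosomucoid transcript in controls and less of it in knockouts. Its share of the summed Orm FPKM was 58.8% and 63.2% in knockout males, against 97.0% and 98.7% in control males. In knockout females the share was 73.3% and 69.0%, against 92.6% and 96.5% in control females. Orm2 took 38.9% and 33.0% in knockout males, against 2.34% and 0.834% in control males, and 22.6% and 26.1% in knockout females, against 3.36% and 1.85% in control females. The transcripts of Orm1 and Orm2 are 91% identical and share 20.4% of the 50-base windows of Orm1, so reads could have been counted for the wrong copy. Orm1 and Orm3 share 2.2% of such windows, and Orm2 and Orm3 share 3.58%. How the authors treated reads that map to several places is not given in the sources used here.

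Lcn2 (NM_008491, chromosome 2, 32240156 to 32243259) encodes lipocalin 2, which binds bacterial siderophores and so withholds iron. It had 219.7 and 201.3 FPKM in knockout males, against 3.42 and 3.98 FPKM in control males. The females had 79.3 and 156.9 FPKM in knockout livers, against 12.0 and 2.88 FPKM in control livers. The male libraries lay close together within each group, and the female ones spread more, without overlap. The authors' deposited table lists it as 58.0-fold higher in knockout males (edgeR adjusted p = 5.7e-86) and 14.3-fold higher in knockout females (edgeR adjusted p = 3.4e-12). The limma voom log2 fold changes were 5.84 ± 0.65 (SE, adjusted p = 0.0055) in males and 3.81 ± 0.50 (SE, adjusted p = 0.025) in females.

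Hp (NM_017370, chromosome 8, 112099027 to 112103072) encodes haptoglobin, the plasma protein that binds free haemoglobin. It had 1546.0 and 1797.6 FPKM in knockout males, against 451.1 and 386.1 FPKM in control males. Knockout females had 933.6 and 1183.0 FPKM, against 264.6 and 234.4 FPKM in control females. The groups were apart by a like factor in both sexes, with no overlap. The authors' deposited table lists it as 4.0-fold higher in knockout males (edgeR adjusted p = 2.4e-14) and 3.86-fold higher in knockout females (edgeR adjusted p = 1.7e-20). The limma voom log2 fold changes, 2.03 ± 0.18 (SE, adjusted p = 0.0031) in males and 1.94 ± 0.17 (SE, adjusted p = 0.0053) in females, had the smallest errors of the 10 genes.

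Hpx (NM_017371, chromosome 7, 112740124 to 112748630) encodes hemopexin, which binds free haem and carries it to the liver. It had 1929.2 and 1828.7 FPKM in knockout males, against 659.5 and 655.8 FPKM in control males. In knockout females it had 902.6 and 1313.1 FPKM, against 631.2 and 574.8 FPKM in control females. The groups did not overlap in either sex, and the female gap was the smaller one. The authors' deposited table lists it as 2.89-fold higher in knockout males (edgeR adjusted p = 1.4e-09) and 1.67-fold higher in knockout females (edgeR adjusted p = 0.028). The limma voom adjusted p was 0.0067 in males and 0.2 in females. The ratio of Hpx to Hp was 1.25 and 1.02 in knockout males, against 1.46 and 1.7 in control males, and 0.967 and 1.11 in knockout females, against 2.39 and 2.45 in control females.

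Together the 10 genes took 2.41% and 2.8% of the reads in genes in knockout males, against 0.56% and 0.48% in control males. In knockout females they took 1.26% and 1.9%, against 0.482% and 0.436% in control females. The order of levels within groups differed accordingly. In knockout males the libraries of Saa2, Saa1 and Hpx overlapped at the top, Hp came next and overlapped with Saa2, and Orm1 and Orm2 followed, then Lcn2 and Saa4, which overlapped, and Orm3 and Saa3, which overlapped too. In control males the order was Hpx, Hp, Orm1, Saa4, Saa1, Saa2, Lcn2, Orm2, Saa3 and Orm3, and neighbours overlapped for Saa4 and Saa1, Lcn2 and Orm2, and Orm2 and Saa3. In knockout females Saa2, Saa1, Hpx and Hp overlapped at the top, Orm1 came next, Saa4, Lcn2 and Orm2 overlapped, and Orm3 and Saa3 came last. In control females Hpx, Hp, Orm1 and Saa4 followed each other without overlap, then Saa1 overlapped with Saa2, and Saa2, Lcn2, Orm3, Orm2 and Saa3 all overlapped with each other.

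The refits of single libraries called fewer genes than the authors' test. With limma voom 7 of the 10 genes were higher in knockout males, against 0.77% of genes tested, and 5 were higher in knockout females, against 0.293%. The 7 were Saa1, Saa2, Orm1, Orm2, Lcn2, Hp and Hpx, and the 5 were Saa1, Saa2, Orm2, Lcn2 and Hp. Without the deeper control male library limma voom called 4 genes in males, namely Saa1, Orm1, Hp and Hpx. In females it called 2, Saa1 and Saa2, without the deeper control female library, and 3, Saa1, Orm2 and Hp, without the shallower knockout female library. With limma on log2(FPKM + 1) 4 genes passed in males, against 0.255%, and 1 passed in females, against 0.0333%. The share of all genes called without 1 library was not counted.

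The libraries of a group also differed in a shared way. All 10 genes were lower in the deeper than in the shallower knockout female library, with ratios of 0.505 for Lcn2 to 0.789 for Hp, while the median over genes with a mean of at least 1 FPKM was 1.01. All 10 were higher in the deeper control female library by recovered FPKM, most for Saa2 with a ratio of 7.05, Saa3 with 5.6 and Lcn2 with 4.16, and the median over genes was 1.04. Orm1 was level there, with a ratio of 1.0. In knockout males 8 of 10 genes were higher in the shallower library, and in control males 8 of 10 were higher in the deeper one. The targeted transcripts differed between knockout libraries as well. In knockout females the deeper library had more Stat5a (0.499 against 0.12 FPKM) and Stat5b (1.77 against 1.11 FPKM) than the shallower one. In knockout males the deeper library had less of Stat5a (0.13 against 0.227 FPKM) and of Stat5b (0.684 against 1.03 FPKM). Whether these pools differed in deletion, animals, handling or sequencing was not tested.

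The question whether the genotype acted unequally in males and females was addressed by the genotype by sex interaction. With limma on log2(FPKM + 1), 0 of 10 genes passed after adjustment over all genes, and 2 of 18004 did so with the larger change in males, which is 0.0111%. At an unadjusted p under 0.05, 1 of the 10 genes passed with limma, where 2.22% of all genes had such a p and the larger change in males. With limma voom 5 passed unadjusted, where that share was 2.72%, and 0 genes passed after adjustment. The 5 were Saa3, Orm1, Orm2, Lcn2 and Hpx, and the 1 with limma was Orm2. The male log2 change exceeded the female one by 2.03 ± 0.70 (SE) for Orm2 (limma adjusted p = 0.84), by 1.82 ± 0.78 for Orm3 and by 1.51 ± 0.82 for Lcn2. For Saa1 the male minus female difference was -0.68 ± 0.70, for Saa4 it was -0.26 ± 0.41 and for Hp it was -0.08 ± 0.33. The plot of ratios by sex shows Saa1, Saa2, Saa4 and Hp side by side in both sexes. Saa3, Orm2, Orm3 and Lcn2, and by less Orm1 and Hpx, lie farther right in males. That separation did not pass after adjustment in either refit.

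**Figure D3:**
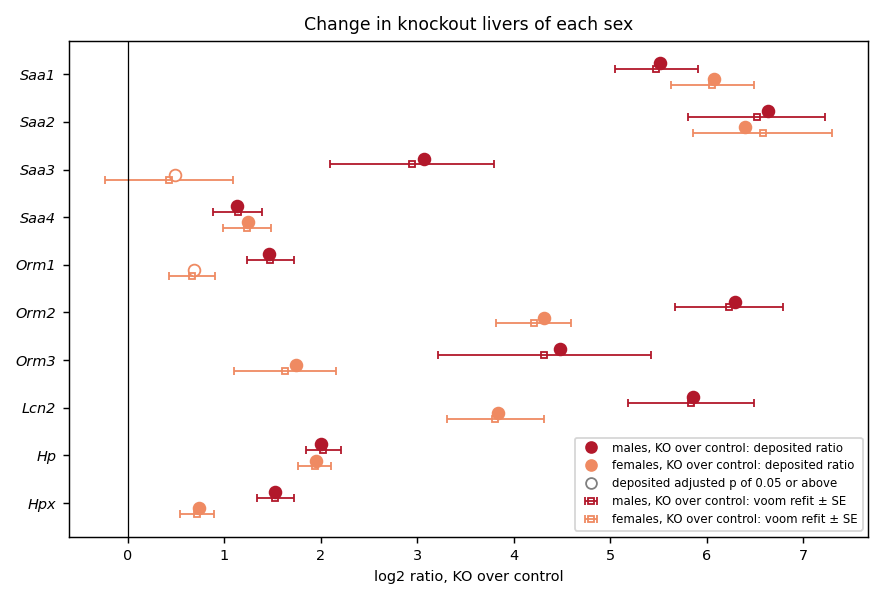
Log2 ratio of knockout over control for each gene, with males in dark red above females in orange; circles are the authors' deposited ratios, filled where the adjusted p is under 0.05, and squares are limma voom refits with their SE. All values lie right of 0, and the open circles are Saa3 and Orm1 in females, with ratios of 1.41 and 1.62.

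Males were also set against females within each genotype, using the same libraries as above. In neither genotype did males and females share a library code, so that code and sex cannot be told apart in these comparisons. In controls the authors' deposited table gives Saa1 as 2.42-fold higher in males (edgeR adjusted p = 0.03), where 0.686% of all genes were higher. In the authors' deposited table Orm3 was 5.56-fold lower in control males (edgeR adjusted p = 1.8e-05), where 0.785% of all genes were lower. In knockouts Orm2 was 2.5-fold higher in males in the authors' deposited table (edgeR adjusted p = 0.00018), where 0.533% of all genes were higher, and 0 of the 10 were lower, where 0.479% of all genes were. The other genes were not called in these comparisons. Hp had ratios of 1.53 in controls (edgeR adjusted p = 0.25) and 1.61 in knockouts (edgeR adjusted p = 0.099) in the authors' deposited table. The median log2 ratio of males over females for the 10 genes was -0.11 in controls and 0.76 in knockouts, beside -0.02 and 0.0 over all genes with reads. The limma voom refit called 0 of the 10 genes in controls, where 0.485% of all genes were higher and 0.277% lower in males, and 0 in knockouts, where 0.193% were higher and 0.193% lower. With limma on log2(FPKM + 1) the count was also 0 in controls, beside 0.222% of genes higher and 0.133% lower, and in knockouts, beside 0.0444% higher and 0.0444% lower. The unadjusted limma voom p was 0.012 for Saa1 and 0.062 for Orm3 in controls and 0.0019 for Orm2 in knockouts.

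The genes that flank these loci were read as well. Of 30 listed genes, 3 on each side of the 5 loci, 7 had a mean under 0.1 FPKM in every group. In knockout males 0 were higher in the authors' deposited table, beside 1.39% of all genes, and 1 (3.33%) was lower, beside 0.793% of all genes. The 1 was Slc25a25, a mitochondrial carrier gene next to the Lcn2 locus, with a ratio of 0.578 (edgeR adjusted p = 0.024) in the authors' deposited table. In knockout females 0 were lower, beside 0.508% of all genes, and 2 (6.67%) were higher in the authors' deposited table, beside 1.04% of all genes, namely the lactate dehydrogenase gene Ldha beyond Saa2 with 1.72-fold (edgeR adjusted p = 0.0032) and the collagen gene Col27a1 before Orm1 with 1.76-fold (edgeR adjusted p = 0.023). Hps5, the next gene after Saa2 and 6151 bases from it, had ratios of 1.47 in males and 1.17 in females in the authors' deposited table and was not called (edgeR adjusted p = 0.36 and 1).

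**Figure D4:**
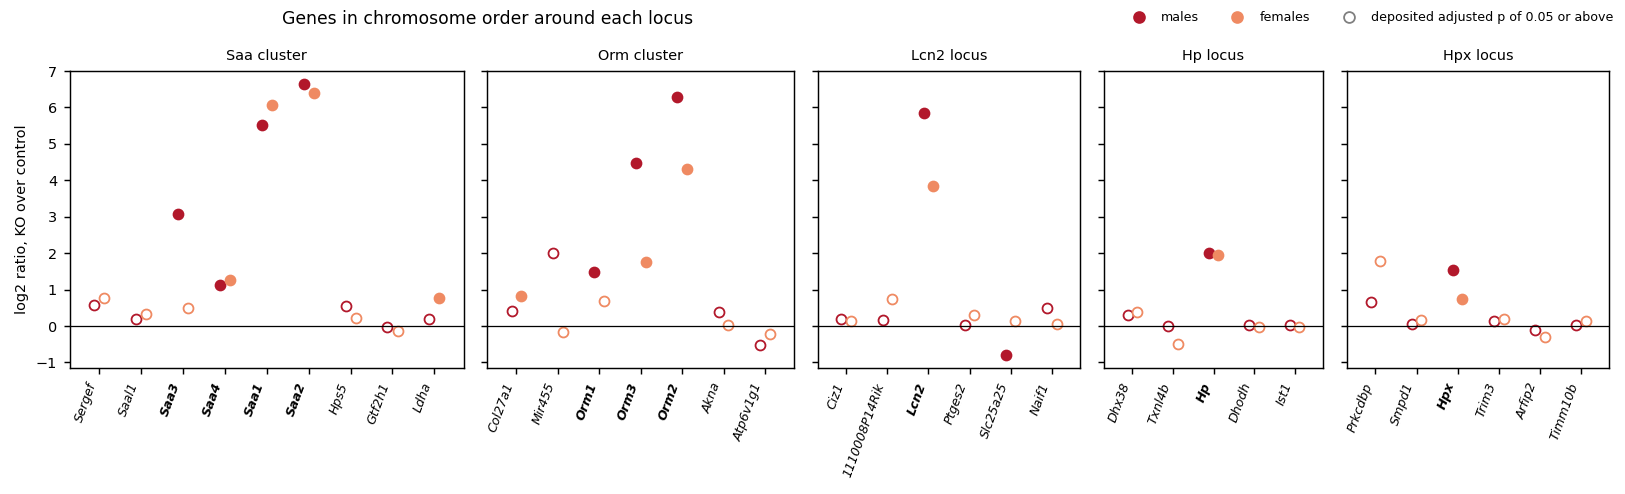
Log2 ratio of knockout over control in the authors' deposited table for the described genes (bold) and their listed neighbours in chromosome order, with males in dark red and females in orange; filled circles have an adjusted p under 0.05, and 7 of 30 neighbours that stayed below a mean of 0.1 FPKM in every group are not drawn. Every filled circle above 1 belongs to one of the described genes.

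Genes with the most similar pattern were named by the correlation of their log2(FPKM + 1) with the mean standardized profile of the 10 genes over 8 libraries, among 8974 genes with a mean of at least 1 FPKM. The highest were Shisa5 (r = 0.992), Itih4 (r = 0.989), Prg4 (r = 0.989), Hps5 (r = 0.988), Ylpm1 (r = 0.988) and Hrg (r = 0.982). Shisa5 had 16.3 and 20.7 FPKM in knockout males, against 3.07 and 3.28 FPKM in control males, and 11.3 and 16.7 FPKM in knockout females, against 3.62 and 2.32 FPKM in control females. Ylpm1 reached a similar r with a narrow range, 2.57 and 2.77 FPKM in knockout males, against 2.2 and 2.09 FPKM in control males. Of the 10 genes themselves, Orm2 was closest to their mean profile (r = 0.985) and Saa3 the farthest (r = 0.895). That mean includes the gene itself, so these 2 values do not compare with those of the genes above. Saa1 and Saa2 had the highest pairwise correlation (r = 0.994) and Saa4 and Orm3 the lowest (r = 0.71). The points share genotype, library and depth, and the correlations are descriptions.

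Of 18 other positive acute phase genes, 10 were higher and 0 lower in knockout males by the authors' deposited table, and 7 were higher and 1 lower in knockout females. The shares of all genes called in that table were 1.39% higher and 0.793% lower in males, and 1.04% and 0.508% in females. The median log2 ratio of the 18 was 1.15 in males and 0.71 in females. Over all genes with reads in both groups it was 0.01 and -0.01. The limma voom refit called 7 in males and 3 in females, all higher, against 0.77% and 0.293% of genes tested. With 1 control male library left out, whichever it was, it called 4 in males. In females it called 1 with the shallower knockout female library or any 1 control female library left out, 2 with any 1 control male library left out and 5 with any 1 knockout male library left out. Il1rn, the interleukin 1 receptor antagonist, had 2.2 and 2.03 FPKM in knockout males, against 0.229 and 0.12 FPKM in control males, and was 9.93-fold higher per the authors' deposited table (edgeR adjusted p = 5.5e-16). In knockout females Il1rn had 1.67 and 1.85 FPKM, against 0.483 and 0.346 FPKM in control females, a 3.7-fold difference in the authors' deposited table (edgeR adjusted p = 5.1e-10). Steap4, a metalloreductase gene, was 4.05-fold higher in knockout males and 3.01-fold higher in knockout females in the authors' deposited table (edgeR adjusted p = 4.4e-16 and 4.8e-06). Lrg1, which encodes a leucine-rich plasma glycoprotein, had 122.8 and 150.2 FPKM in knockout females, against 33.6 and 25.6 FPKM in control females, and was 4.19-fold higher per the authors' deposited table (edgeR adjusted p = 7.2e-21). The protease inhibitor Serpina3n was 3.5-fold higher in knockout males in the authors' deposited table (edgeR adjusted p = 4.0e-12). Itih3, Itih4 and Lbp, which encode chains of the inter-alpha-trypsin inhibitor family and the lipopolysaccharide binding protein, were higher in both sexes, and Cd14 and the metallothioneins Mt1 and Mt2 were higher in knockout males.

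Not every acute phase gene was called. Crp, the fibrinogen genes Fga, Fgb and Fgg, C3, Cp and Hamp were called in neither sex. Apcs, which encodes serum amyloid P, a main acute phase protein of the mouse, had 93.2 and 105.4 FPKM in knockout females, against 189.4 and 160.0 FPKM in control females. It was 1.93-fold lower in knockout females in the authors' deposited table (edgeR adjusted p = 4.2e-05), and its ratio in males was 1.0. Of 9 genes known to fall in the acute phase, such as albumin and transthyretin, 0 were lower in either sex in the authors' deposited table. That is near the share of all genes called lower, 0.793% in knockout males and 0.508% in knockout females. Limma voom called 0 of the 9. Counting unadjusted p-values under 0.05, 0 of the 9 were lower in knockout males and 1 in knockout females. The 1 was the transferrin gene Trf, with a ratio of 0.686 in the authors' deposited table (edgeR adjusted p = 0.19). The share of all genes with such a p was not counted. Also in this list Serpina6, the corticosteroid binding globulin, was 2.81-fold higher in knockout males in the authors' deposited table (edgeR adjusted p = 0.0035).

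**Figure D5:**
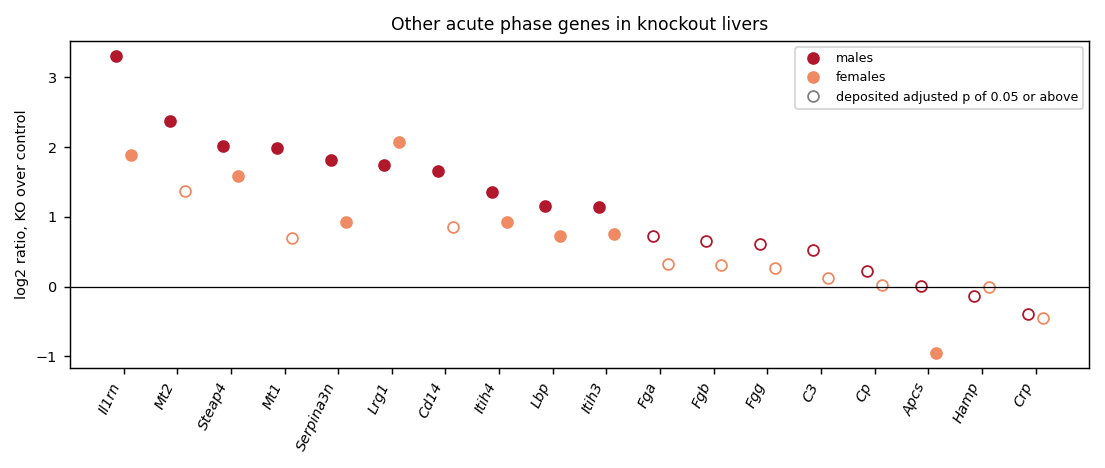
Log2 ratio of knockout over control in the authors' deposited table for 18 other acute phase genes, ordered by the male ratio, with males in dark red left of females in orange; filled circles have an adjusted p under 0.05. Il1rn stands highest in males at 3.31, and Apcs in females is the only filled circle below 0, at -0.95.

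Of 30 genes of cytokine signalling upstream of acute phase genes, 3 were higher and 1 lower in knockout males by the authors' deposited table. In knockout females 4 were higher and 1 lower. Of all genes 1.39% were higher and 0.793% lower in knockout males, and 1.04% and 0.508% in knockout females. Il1r1, the signalling receptor of interleukin 1, had 8.89 and 11.6 FPKM in knockout females, against 2.97 and 2.5 FPKM in control females, a 3.4-fold difference in the authors' deposited table (edgeR adjusted p = 1.7e-14). In males it had 6.53 and 9.08 FPKM in knockout livers, against 5.34 and 7.18 FPKM in control livers, and the groups overlapped. Lifr, the receptor subunit for leukaemia inhibitory factor, was 2.16-fold lower in knockout males and 1.79-fold lower in knockout females in the authors' deposited table (edgeR adjusted p = 6.2e-05 and 0.0011). Cebpd, which encodes a C/EBP factor, was 2.24-fold higher in knockout males and 2.11-fold higher in knockout females per the authors' deposited table (edgeR adjusted p = 0.022 and 0.029). Cebpb was higher in knockout females and Tlr2 in knockout males, while Stat3, Il6ra, Il6st and Socs3 were called in neither. Of 12 receptors and partners of the secreted proteins, 2 were higher in each sex in the authors' deposited table, the scavenger receptors Cd36, with 9.74-fold in males and 3.86-fold in females, and Scarb1, with 1.64-fold in males and 1.52-fold in females.

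Markers of other cells were measured because several of these genes are also made outside hepatocytes. Of 15 listed macrophage and Kupffer cell markers, 3 were higher in knockout males and 1 in knockout females in the authors' deposited table. The shares of all genes called higher there were 1.39% in males and 1.04% in females. At an unadjusted edgeR p under 0.05, 12 of the 15 differed in knockout males and 1 in knockout females, with 0 lower. That share over all genes was not counted. The summed level of the 15, given with Saa3 for males, was 91.7 and 134.0 FPKM in knockout females, against 82.5 and 77.9 FPKM in control females. Without Mpeg1 it was 76.8 and 98.2 FPKM in knockout females, against 76.0 and 73.1 FPKM in control females. Mpeg1, a pore-forming protein of macrophages, was called in both sexes, and none of the 15 was at 0 in any library. Of 13 listed neutrophil markers, which matter for Lcn2 and Hp, 1 was higher in knockout males, namely Prtn3, with 17 and 19 reads in knockout males, against 0 in both control male libraries. The summed neutrophil level was 1.92 to 4.56 FPKM in knockout libraries, against 1.38 to 3.81 FPKM in control libraries, with 1 to 8 of the 13 genes at 0 in a library. The granule genes Mpo, Elane, Ngp, Camp and Ltf had 2 reads or fewer in each library. Prtn3 had more reads in knockout females too, with 7 and 14 in knockout livers, against 1 and 2 in control livers, and was not called there. The summed level of 6 adipose markers was 1.5 to 2.63 FPKM in knockout libraries, against 1.26 to 2.72 FPKM in control libraries, with 0 called. Of 12 pancreas markers, 11 had reads, and in males 7 of these, Prss2, Pnlip, Cel, Ctrb1, Cpa1, Clps and Pnliprp1, had reads in both knockout libraries, against 0 in both control libraries. Of the 11, 2 and 0 were at 0 in knockout males, against 9 and 10 in control males, and 8 and 9 in knockout females, against 7 and 9 in control females. Ctrb1, a chymotrypsinogen gene, had 6 and 18 reads in knockout males, against 0 in both control male libraries (edgeR adjusted p = 0.063 in the authors' deposited table), and was called higher in knockout males than in knockout females (edgeR adjusted p = 0.0028). In males 5 of the 12 had an unadjusted p under 0.05 in the authors' deposited table, and the share of all genes with such a p was not counted. The 1 called was the elastase gene Cela1, 2.75-fold lower in knockout males in the authors' deposited table (edgeR adjusted p = 8.6e-05), and it held most of the summed level of 3.27 and 7.43 FPKM in knockout males, against 9.38 and 11.2 FPKM in control males. The part of these markers in the other results was not tested. Of 4 lung and gut epithelium markers 0 were called, with a summed level of at most 0.064 FPKM.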

How the data were processed

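Liver RNA sequencing was compared between 4 groups of 2 pooled libraries. TopHat2, featureCounts, edgeR and the build mm9 stand in the submitters' processing notes, without versions. Annotation, filters and read length were not stated. Per the file headers, FPKM are the authors' group means. It also gives for each comparison a normalized expression ratio (fold) of the authors and a p-value of their edgeR test, per the file headers. Their adjusted p-value was checked to equal Benjamini-Hochberg adjustment over all 24197 genes. Where a fold is given as lower, it is the inverse of the deposited ratio.

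The reads of single libraries were recovered by solving each mean FPKM for whole reads in both libraries, within the rounding of the last deposited decimals. All 18004 genes with reads were solved, and recomputed FPKM differed by at most 2.4e-11. On simulated reads, 285 of 285 genes with at least 50 reads and 114 of 115 with fewer were recovered. Libraries are told apart by total alone and were assigned to no pool number, and columns for single samples are not used here. Means carry n = 2, and p-values rest on the spread between pools, not animals, or on the authors' estimate of it.

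Refits used limma 3.58.1 in R 4.3.3 on all 8 libraries: limma with trend on log2(FPKM + 1), a scale that understates folds of low genes, and limma voom on recovered reads with median-of-ratios sizes, for genes with at least 10 reads in at least 2 libraries. The fits were tested on simulated data. Calls lead with the authors' table, and the refits are alternatives, as are other library sizes, a pseudocount of 0.1, other filters, 2 groups only and leaving out each library. Beside the 10 genes, every called gene of a listed group could be named, with values for the 3 of lowest adjusted p. The result of 1 listed gene is not reported here. The genes and lists were chosen with earlier results of these data known. Exact permutation tests of 2 against 2 libraries could not reach a p under 0.05. Protein sequences were not used here; transcript likeness came from GENCODE M21 transcripts and promoters from RefSeq.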

Additional observations from a re-analysis of the deposited data

How the results depend on the processing

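No paired analysis was possible because the deposited columns carry no pool numbers, and no replicate block was fitted. Of the 10 genes, 10 were called in knockout males by the authors' deposited table, against 4 with limma on log2(FPKM + 1), 6 with a pseudocount of 0.1, 8 at a mean of at least 1 FPKM and 6 with limma voom on 2 groups only. In knockout females 8 were called, against 1 with limma at either pseudocount and 5 each with limma voom, with its other library sizes, with no filter on low reads, and with limma at a mean of at least 1 FPKM, and 6 with limma voom on 2 groups only. Leaving out 1 library at a time, limma voom called 4 to 7 in males and 2 to 5 in females. The 2 calls between sexes in controls and the 1 in knockouts became 0 in every refit, leave-one-out range 0 to 0. A lone library was taken to vary like the others. Of genes tested, limma on log2(FPKM + 1) called 0.255% higher in knockout males and 0.0333% in knockout females. For limma voom these shares were 0.77% and 0.293%. For the other settings the share was not counted. Some of them test another set of genes, so the counts of members do not compare like with like. Called changes reversed in 0 of the 160 male values. The uncalled log2 change of Saa3 in females turned to -0.29 without the shallower control female library. Between sexes in controls, uncalled signs turned for Saa2 (-0.16), Saa3 (0.31), Orm1 (0.03), Lcn2 (0.17) and Hpx (0.13 with limma, 0.09 and 0.02 without 1 library). In knockouts Orm3 turned to -0.35 and -0.21. The interaction turned for Saa2 (-1.53 to 1.02 without 1 library), Saa4 (-0.64 to 0.12) and Hp (0.08 with limma voom, -0.25 to 0.09 without 1 library). The cause was not tested. Other library sizes moved the median of all genes by at most 0.052 on the log2 scale. The shallower control male library, with 3 reads of Orm3 and 6 of Saa3 and Orm2, limits the folds of these genes.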

Other observations

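In controls, Lrg1 was 2.05-fold higher in males than in females in the authors' deposited table (edgeR adjusted p = 0.00033), with 60.0 and 75.2 FPKM in control males, against 33.6 and 25.6 FPKM in control females. Apcs was 2.21-fold lower in control males in the authors' deposited table (edgeR adjusted p = 1.3e-05), with 78.8 and 96.7 FPKM in control males, against 189.4 and 160.0 FPKM in control females. In knockouts neither was called between the sexes, and library code and sex cannot be told apart in either genotype. The metallothionein gene Mt2 had 125.0 and 251.1 FPKM in knockout males, against 60.9 and 6.97 FPKM in control males, which were wide apart.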
